A study of Mus musculus with 20 samples.

Results

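The genes described here are 32 genes of the oligodendrocyte lineage and of myelin, taken from a list of symbols and measured in the amygdala of mice that carry or lack the serotonin transporter 5-HTT. A gene entered through the probe set that carries its symbol and no other. All 32 listed genes were found with 1 such probe set each, among 19933 different symbols on the array. Male mice on a C57BL/6 background, all descendants of heterozygous (+/-) 5-HTT parents, were either wildtype (WT) or homozygous 5-HTT knockout (KO). At 7 months they had first passed an elevated plus-maze test and were then left in the home cage for 1 min (con) or put into water of 22 °C for 1 min (stress), so all 4 groups share the single housing, the maze test, the isoflurane anaesthesia and the decapitation. This gives the groups *WT con* and *WT stress*, and *KO con* and *KO stress*, with 5 arrays in each, and the tissue of an array is the left and right amygdala of 1 mouse, collected within minutes of the stressor. The knockout is constitutive, so it was present through development and in every cell. Values are log2 signals of whole-transcript arrays, in which a difference of 1 is a doubling. The signal of a probe set depends on its probes, so levels were compared between arrays and never between genes.

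Oligodendrocytes arise from dividing precursor cells, which carry the receptor PDGFRA and the proteoglycan NG2 (the product of Cspg4) and persist in the adult brain. Precursors that commit to differentiation pass through a short stage marked by the receptor GPR17 and by ENPP6, and then build compact myelin, the lipid-rich sheath that insulates axons. The transcription factors OLIG1, OLIG2 and SOX10 act through much of the lineage, and MYRF switches on the myelin genes. In the amygdala, myelinated fibres run through and around the nuclei. In whole tissue, fewer cells of a type and less RNA per cell cannot be told apart.

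The members fell into 4 groups by role. Precursor genes were Pdgfra and Cspg4. Genes of committed, newly forming oligodendrocytes were Gpr17, Enpp6 and Bcas1. Regulators were Olig1, Olig2, Sox10, Myrf and Nkx6-2. The 22 mature genes code for myelin proteins (Mbp, Mog, Mag, Mobp, Cnp, Cldn11, Opalin, Ermn, Mal, Pllp, Tspan2 and Gjc3), for enzymes of myelin lipids and their building blocks (Ugt8a, Fa2h and Aspa), or for other products enriched in these cells (Gpr37, Trf, Ppp1r14a, Hapln2, Apod, Tmem125 and Anln). Several of these genes are shared with other cells: Pdgfra and Apod with fibroblasts of the meninges, Cspg4 with pericytes, Trf with the choroid plexus. Mean signals over the 20 arrays ran from 6.45 for Enpp6 to 10.88 for Apod. 0 members had a mean under 5, the range in which 14.6% of all probe sets lie and differences are compressed. The SD within groups ran from 0.13 for Tmem125 to 0.47 for Ermn.

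The targeted gene was checked first. Slc6a4, which encodes 5-HTT, read 5.82 to 7.82 in *WT con*, 6.30 to 6.55 in *WT stress*, 8.11 to 8.20 in *KO con* and 8.10 to 8.38 in *KO stress*. Its signal was thus higher in all KO arrays than in all WT arrays, and the position of its probes in relation to the targeted exon is not known, so this signal does not check the knockout. Array medians lay between 6.59 and 6.82, and pairs of arrays correlated at 0.948 to 0.996. *WT stress* replicate 1 stood furthest apart, with a median correlation of 0.961 to the other arrays, followed by *WT con* replicate 1 with 0.978.

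No member passed the adjusted threshold in any comparison (limma, Benjamini-Hochberg over all probe sets, smallest adjusted p = 0.412), where 0.00348% of all probe sets passed in *stress KO vs. WT* and for genotype averaged over conditions and 0 elsewhere. No member met a fold over 1.5 together with an unadjusted p under 0.05. The share of all probe sets that did was 0.24% in *WT stress vs. con*, 0.139% in *KO stress vs. con*, 0.0487% in *con KO vs. WT* and 0.768% in *stress KO vs. WT*. It was 0.591% for the interaction, 0.0556% for stress averaged over genotypes and 0.139% for genotype averaged over conditions. The members to which the comparisons below return most are the precursor receptor gene Pdgfra (probe set 10522503, chr5:75151322-75198206, GRCm38.p6), the neighbouring regulator genes Olig2 (10436823, chr16:91225550-91228677) and Olig1 (10436828, chr16:91269769-91271939), and the cytoskeleton gene Ermn (10482795, chr2:58045115-58052864). Values are given first by array and then by comparison.

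Pdgfra, the receptor for the growth factor that keeps precursors dividing, read 8.98, 8.96, 9.02, 9.32 and 9.34 in *WT con* and 8.44, 8.99, 8.98, 9.00 and 9.05 in *WT stress*. It read 9.13, 9.09, 9.21, 9.18 and 9.23 in *KO con* and 9.09, 9.42, 9.15, 8.94 and 9.30 in *KO stress*. Its lowest value is that of *WT stress* replicate 1 and its highest that of *KO stress* replicate 2, and the groups overlapped in each of the 4 comparisons. Cspg4 read 7.24, 7.28, 7.39, 7.33 and 7.17 in *WT con*, 7.75, 7.28, 7.25, 7.14 and 6.92 in *WT stress*, 7.28, 7.18, 7.22, 7.33 and 7.28 in *KO con*, and 7.22, 7.42, 7.29, 7.53 and 7.04 in *KO stress*. Unlike Pdgfra, Cspg4 was highest in *WT stress* replicate 1, and its other 4 values in that group lay between 6.92 and 7.28.

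Of the committed stage, Gpr17, a G protein-coupled receptor that marks the step before myelination, read 7.33, 7.39, 7.71, 7.67 and 7.67 in *WT con*, 7.32, 7.70, 7.97, 7.35 and 7.41 in *WT stress*, 7.29, 7.72, 7.79, 7.59 and 7.76 in *KO con*, and 7.64, 7.69, 7.86, 7.54 and 7.70 in *KO stress*. All 4 groups shared the range from 7.54 to 7.71. Enpp6, a choline phosphodiesterase of newly forming oligodendrocytes, read 5.69, 6.53, 6.34, 6.67 and 6.11 in *WT con*, 5.90, 6.88, 6.48, 6.46 and 6.42 in *WT stress*, 6.37, 6.66, 6.88, 6.91 and 6.26 in *KO con*, and 6.29, 6.43, 5.96, 6.69 and 7.03 in *KO stress*. Replicate 1 of both WT groups was the lowest of its group. Bcas1, a protein of early myelinating cells, ranged from 7.53 in *WT stress* replicate 1 to 8.63 in *KO stress* replicate 5.

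Among the regulators, Olig1 read 8.95, 9.04, 8.90, 9.42 and 9.28 in *WT con*, 8.05, 9.15, 9.14, 8.91 and 9.16 in *WT stress*, 9.00, 9.13, 9.44, 9.35 and 9.10 in *KO con*, and 9.19, 8.97, 9.11, 9.17 and 9.44 in *KO stress*. The single value of 8.05 in *WT stress* replicate 1 lay far below the other 19. Olig2, its close relative and neighbour on chromosome 16, read 7.81, 8.03, 7.63, 8.06 and 8.15 in *WT con*, 7.30, 8.17, 7.81, 7.81 and 8.06 in *WT stress*, 7.99, 8.33, 8.44, 8.13 and 7.98 in *KO con*, and 7.96, 8.11, 8.09, 8.05 and 8.03 in *KO stress*. Every KO value of Olig2 was at least 7.96, while 5 of the 10 WT values lay below that level.

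Sox10, which keeps the lineage identity and acts with MYRF, read 8.22, 8.34, 8.44, 8.26 and 8.14 in *WT con*, 7.78, 8.55, 8.43, 8.02 and 8.04 in *WT stress*, 8.02, 8.45, 8.31, 8.45 and 7.98 in *KO con*, and 8.27, 8.22, 8.02, 8.57 and 8.24 in *KO stress*. Myrf read 8.55, 8.78, 8.48, 8.81 and 8.65 in *WT con*, 8.15, 9.04, 8.79, 8.43 and 8.63 in *WT stress*, 8.42, 8.64, 8.90, 8.80 and 8.43 in *KO con*, and 8.41, 8.73, 8.33, 9.03 and 8.68 in *KO stress*. For both factors the spread within *WT stress* was the widest of the 4 groups, with SDs of 0.32 and 0.34. Nkx6-2, a homeobox gene of late differentiation, ranged from 7.12 in *WT stress* replicate 4 to 8.30 in *KO stress* replicate 1.

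Mbp, myelin basic protein, which holds the membrane layers of compact myelin together, read 10.47, 10.68, 10.60, 10.85 and 10.61 in *WT con*, 10.32, 11.05, 10.83, 10.74 and 10.72 in *WT stress*, 10.68, 10.64, 10.87, 10.92 and 10.70 in *KO con*, and 10.72, 10.91, 10.57, 11.01 and 10.89 in *KO stress*. Mog, on the outermost myelin surface, read 8.38, 8.63, 8.52, 9.01 and 8.80 in *WT con*, 8.08, 8.89, 8.41, 8.82 and 8.91 in *WT stress*, 8.65, 8.63, 8.83, 8.92 and 8.36 in *KO con*, and 8.66, 8.68, 8.23, 8.67 and 9.00 in *KO stress*. Mag, the adhesion protein that faces the axon, read 9.75, 9.54, 9.22, 9.94 and 9.97 in *WT con*, 9.20, 9.76, 9.51, 9.79 and 9.93 in *WT stress*, 9.53, 9.46, 9.96, 9.75 and 9.51 in *KO con*, and 9.27, 9.70, 9.20, 9.59 and 9.99 in *KO stress*. The 4 group means ran from 10.64 to 10.82 for Mbp, from 8.62 to 8.68 for Mog and from 9.55 to 9.68 for Mag, ranges below the SDs within groups of 0.18, 0.28 and 0.29.

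Ermn, ermin, a protein of the oligodendrocyte cytoskeleton found late in myelination, read 8.44, 9.70, 8.96, 9.39 and 9.05 in *WT con*, 8.16, 9.94, 9.38, 9.47 and 9.38 in *WT stress*, 9.54, 9.84, 9.84, 9.71 and 9.41 in *KO con*, and 9.34, 9.52, 8.88, 9.47 and 10.03 in *KO stress*. It had the widest spread of all members, and 3 of the 5 *KO con* arrays lay above all *WT con* arrays. Hapln2, a link protein of the matrix at the nodes of Ranvier, read 7.18, 6.83, 6.85, 7.10 and 7.32 in *WT con*, 7.02, 6.96, 7.02, 7.01 and 7.07 in *WT stress*, 6.94, 6.78, 7.21, 7.12 and 6.96 in *KO con*, and 6.84, 6.80, 6.71, 6.67 and 7.31 in *KO stress*. In *KO stress* 4 values lay between 6.67 and 6.84, and replicate 5 lay above them.

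**Figure D1:**
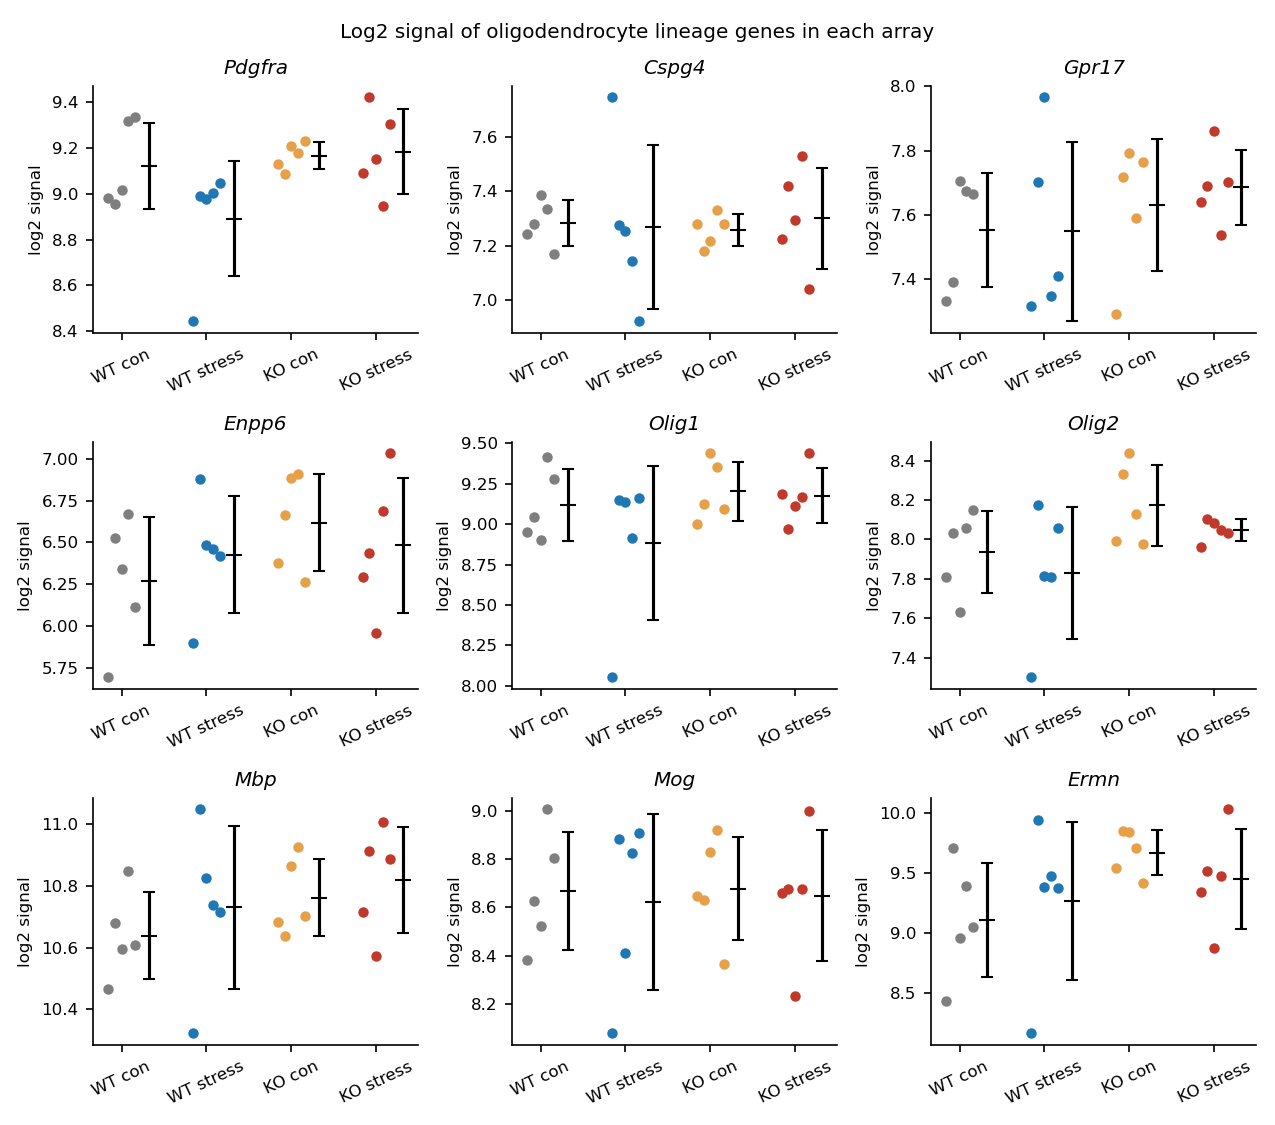
Log2 signal (y axis) of 9 members in the 4 groups (x axis). Each point is 1 array, in the order of replicates 1 to 5, and the bar beside each group is the mean ± SD (n = 5). The groups overlap in each panel, and *WT stress* replicate 1 is the lowest array for Pdgfra, Olig1, Olig2, Mbp, Mog and Ermn.

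The heat map of all members by array showed a wider spread between mice of a group than between group means. *WT stress* replicate 1 gave the lowest value of the 20 arrays for 21 of the 32 members, and *KO stress* replicate 5 gave the highest for 11. The mean of the 22 mature genes, each centred on its mean over all arrays, was -0.55 in *WT stress* replicate 1 and 0.33 in *KO stress* replicate 5. *KO stress* replicate 3, with -0.37, and *WT con* replicate 1, with -0.24, were the next lowest. The group means of the same score lay between -0.05 for *WT stress* and 0.07 for *KO con*, with SDs of 0.16 to 0.30 (n = 5 in each group). In *WT stress* replicate 1 the astrocyte marker score, built in the same way from 11 genes, was -0.82, below the other 19 arrays (-0.16 to 0.33). The microglia score, -0.30, was also the lowest of the 20 arrays. The scores of cortical-type and striatal neurons were 0.71 and 0.89, within the ranges of the other arrays (-0.59 to 1.14 and -1.26 to 1.23). The part of these differences in tissue make-up in the values of that array was not tested.

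**Figure D2:**
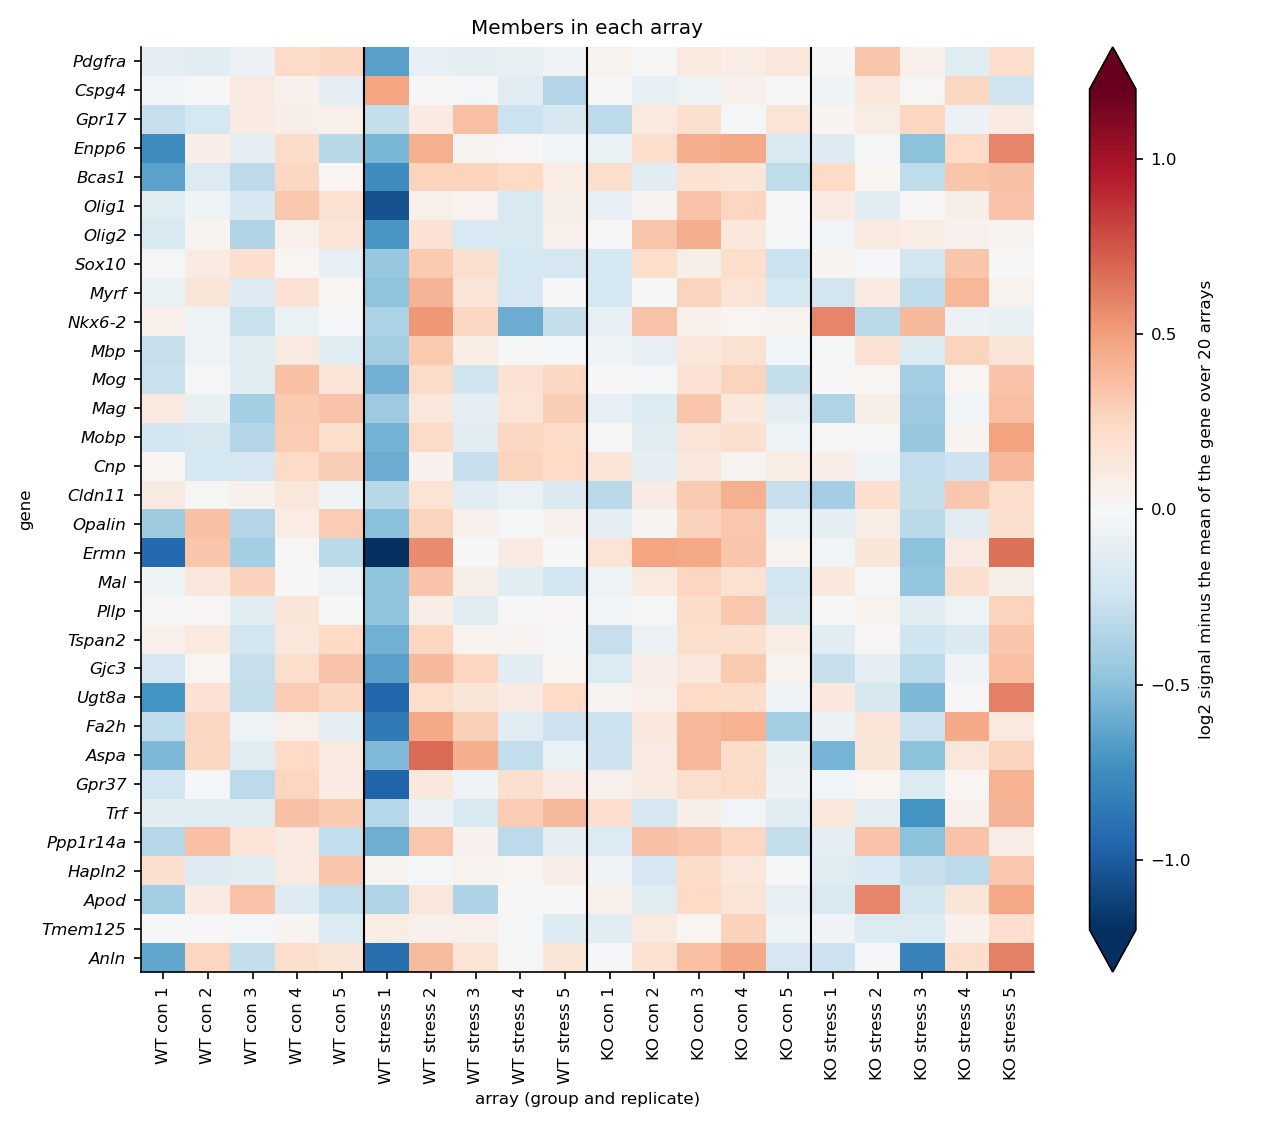
Log2 signal of each member (rows) in each array (columns) minus the mean of that gene over the 20 arrays, on a colour scale from blue (lower) to red (higher). The column of *WT stress* replicate 1 is blue for most members, that of *KO stress* replicate 5 red, and vertical lines separate the 4 groups.

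The first question was whether 1 min of swim stress was followed by different values in each genotype. In *WT stress vs. con*, 9 members had a higher mean after stress and 23 a lower mean, with a median log2 difference of -0.04, while 62.8% of all probe sets were higher with a median of 0.03. 0 of the 32 members had an unadjusted p under 0.05 (limma), against 3.54% of all probe sets. Pdgfra had the smallest p, with a difference of -0.23 ± 0.11 (SE, limma p = 0.0569, exact two-sided permutation p = 0.214), and 1 of 5 *WT stress* arrays lay below all *WT con* arrays. Olig1 came next, with the same difference of -0.23 (SE 0.18, limma p = 0.197, exact two-sided permutation p = 0.405). Both rest largely on *WT stress* replicate 1: without it the differences were -0.12 for Pdgfra and -0.03 for Olig1, and the median of the 32 members turned from -0.04 to 0.06. By role, 0 of 2 precursor genes, 2 of 3 committed genes, 0 of 5 regulators and 7 of 22 mature genes were higher after stress. Markers of other cells moved in the same comparison: all 8 measured markers of cortical-type neurons had a higher mean after stress (median 0.55, array scores from -0.30 to 1.14 in *WT stress* and from -0.47 to 0.24 in *WT con*), as did all 8 of striatal neurons (median 0.45, from -1.26 to 1.01 and from -1.11 to 1.23), while 9 of 11 astrocyte markers were lower (median -0.12, from -0.82 to 0.24 and from -0.15 to 0.11). Of the 11 choroid plexus markers 9 were higher (median 0.37, array scores from -1.04 to 2.79 in *WT stress* and from -0.78 to 0.08 in *WT con*). The part of all these cell types in the values of the members was not tested.

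In *KO stress vs. con*, again 9 members were higher and 23 lower, with a median of -0.05, beside 48.5% higher and a median of -0.00 over all probe sets. 0 of the 32 members had an unadjusted p under 0.05 in this comparison (limma), against 1.13% of all probe sets. Hapln2 had the smallest p, with -0.14 ± 0.11 (SE, limma p = 0.249, exact two-sided permutation p = 0.333), and Olig2 followed with -0.13 ± 0.14 (SE, limma p = 0.368, exact two-sided permutation p = 0.286). Without *KO stress* replicate 5, Hapln2 stood at -0.25 and its limma p fell under 0.05. The precursor genes were both slightly higher, Pdgfra by 0.02 and Cspg4 by 0.04, and 19 of the 22 mature genes were lower, with a median of -0.07. The largest lower value among them was that of Ermn, -0.22, with a 95% interval from -0.81 to 0.36. The median of the members was 0.01 without *KO stress* replicate 3. In the same comparison all 11 choroid plexus markers had a higher mean after stress, with a median of 1.19 and array scores from -0.54 to 2.06 in *KO stress* and from -1.02 to -0.35 in *KO con*. All 12 meningeal fibroblast markers did too, with a median of 0.77 and array scores from -0.27 to 1.53 in *KO stress* and from -0.58 to 0.05 in *KO con*. Most of the choroid plexus markers, such as Ttr, Kcnj13 and Kl, are in the study's own list of genes higher in this comparison. The meningeal list shares Igf2 and Col1a2 with it. The choroid plexus count was thus largely fixed in advance and is no separate evidence. Comparisons below that use either KO group share these arrays. The part of either tissue in the values of the members was not tested.

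Averaged over both genotypes, 8 members were higher after stress and 24 lower, with a median of -0.05 (all probe sets 0.01, 60.6% higher). None of the 32 had an unadjusted p under 0.05 (limma), against 1.67% of all probe sets. The 95% intervals of all 32 members lay within 1.5-fold in either direction, the widest bounds being -0.48 and 0.45 on the log2 scale. A 1.5-fold difference after stress thus lay outside the interval of each member. The direction of the list rests on 1 array, since the median was 0.007 without *WT stress* replicate 1. Within a single genotype the intervals of 28 members (WT) and 27 members (KO) lay within that range.

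The second question was whether the genotypes differed. In *con KO vs. WT*, 23 members were higher in KO and 9 lower, with a median of 0.08, beside 50.1% higher and a median of 0.00 over all probe sets. The median of the members was 0.02 without *WT con* replicate 1. 0 of the 32 members had an unadjusted p under 0.05 (limma), against 3.57% of all probe sets. Ermn had the largest difference, 0.56 ± 0.28 (SE, 1.48-fold, limma p = 0.0589, exact two-sided permutation p = 0.0317). With *WT con* replicate 2 left out it was 0.71, past both the fold and the p threshold, and with *WT con* replicate 1 left out it was 0.39, past neither. Olig2 followed with 0.24 ± 0.14 (SE, limma p = 0.0992, exact two-sided permutation p = 0.127), and 2 of 5 *KO con* arrays lay above all *WT con* arrays. The other members with a difference over 0.2 were Enpp6 at 0.35 ± 0.22 (SE, limma adjusted p = 0.929) and Anln at 0.21 ± 0.26 (SE, limma adjusted p = 0.931), and Mbp, Mog and Mag stood at 0.12, 0.01 and -0.04. All 8 measured striatal neuron markers had a higher mean in *KO con* as well (median 0.55, array scores from -0.90 to 1.01 in *KO con* and from -1.11 to 1.23 in *WT con*). So did 7 of 8 microglia markers (median 0.17, from -0.02 to 0.40 and from -0.15 to 0.03). All 11 choroid plexus markers were lower in *KO con* (median -0.34, from -1.02 to -0.35 and from -0.78 to 0.08). Of the 12 meningeal fibroblast markers 10 were lower (median -0.20, from -0.58 to 0.05 and from -0.49 to 1.18). The part of these cell types in the values of the members was not tested.

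In *stress KO vs. WT*, 24 members were higher in KO and 8 lower, with a median of 0.06, beside 41.3% higher and a median of -0.03 over all probe sets. 1 of the 32 members had an unadjusted p under 0.05 (limma), against 9.28% of all probe sets (3.05% in the direction of higher in KO). This member was Pdgfra, with a difference of 0.29 ± 0.11 (SE, 1.22-fold, limma p = 0.0192, adjusted p = 0.53, exact two-sided permutation p = 0.0476), and 4 of 5 *KO stress* arrays lay above all *WT stress* arrays. With *WT stress* replicate 1 left out the difference was 0.18, with *KO stress* replicate 2 left out it was 0.23, and in both cases the limma p was over 0.05. *KO stress* replicate 2 also had the highest score of meningeal fibroblast markers, 1.53, and of pericyte markers, 0.55, of the 20 arrays. The next highest meningeal scores were those of *WT con* replicate 3, 1.18, and *KO stress* replicate 4, 0.87, where Pdgfra read 9.02 and 8.94. *WT stress* replicate 1, with the lowest Pdgfra of all arrays, 8.44, had a meningeal score of 0.40, the highest of its group. All 12 meningeal fibroblast markers had a higher mean in *KO stress* than in *WT stress*, with a median difference of 0.53 and array scores from -0.27 to 1.53 in *KO stress* and from -0.54 to 0.40 in *WT stress*. Fibroblasts of the meninges carry Pdgfra too, and their part in its difference was not tested.

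Olig1 stood beside Pdgfra in this comparison, with 0.29 ± 0.18 (SE, limma p = 0.115, exact two-sided permutation p = 0.19), and 0.08 without *WT stress* replicate 1. All 5 regulators and all 3 committed genes had higher means in *KO stress*, with medians of 0.20 and 0.11, and 14 of 22 mature genes did, with a median of 0.03. Beside them, 10 of 11 astrocyte markers were higher (median 0.24, array scores from 0.05 to 0.33 in *KO stress* and from -0.82 to 0.24 in *WT stress*), all 11 choroid plexus markers were higher (median 0.57, from -0.54 to 2.06 and from -1.04 to 2.79), and all 8 cortical-type neuron markers were lower (median -0.35, from -0.59 to 0.52 and from -0.30 to 1.14). Their part in these values was not tested. The median of the 32 members was -0.06 without *WT stress* replicate 1, so the direction of the list rests on that array. The mature gene with the largest higher value was Apod, a lipocalin of glia and fibroblasts, with 0.28 (limma, adjusted p = 0.545). Its highest arrays were *KO stress* replicate 2 with 11.47, *KO stress* replicate 5 with 11.35 and *WT con* replicate 3 with 11.23, and replicate 2 of *KO stress* and replicate 3 of *WT con* also had the highest meningeal scores, 1.53 and 1.18. Trf, transferrin, read 10.80 in *WT stress* replicate 4 and 10.38 in *KO stress* replicate 2, the arrays with the highest choroid plexus scores (2.79 and 2.06), and was highest, at 10.90, in *KO stress* replicate 5, where that score was 0.35.

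**Figure D3:**
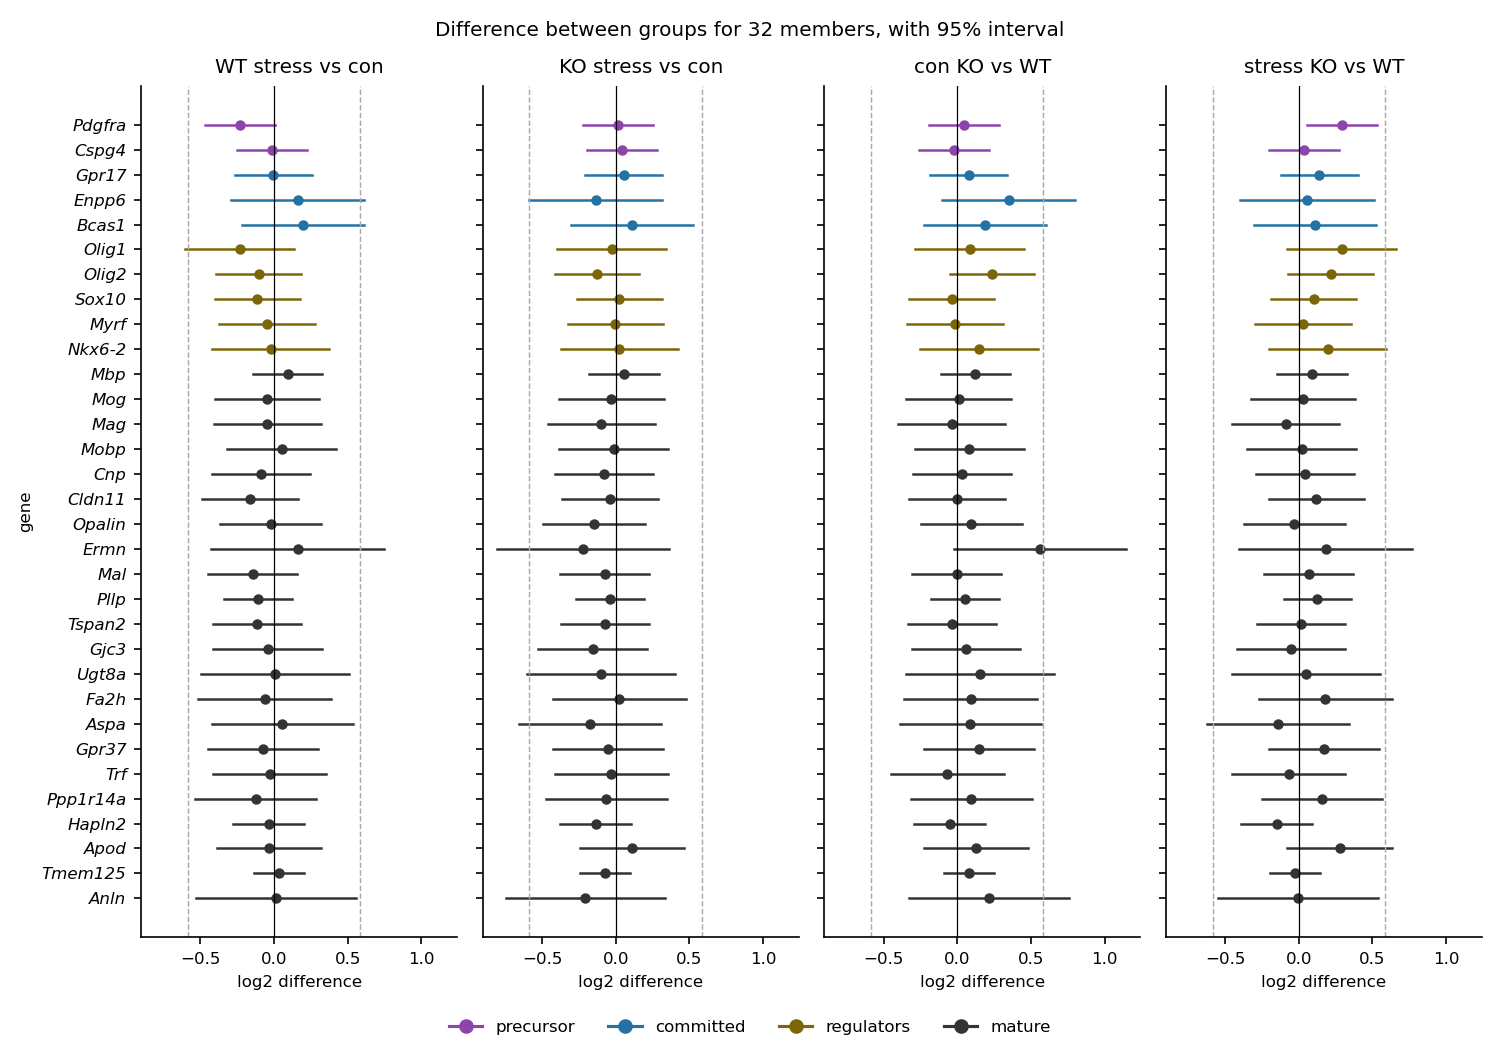
Log2 difference (x axis) of each member (y axis) in the 4 comparisons, as a point with its 95% interval from limma. Dashed lines mark a 1.5-fold difference in either direction. The interval of Pdgfra in *stress KO vs. WT*, from 0.05 to 0.53, is the only one that leaves out 0, and Ermn has the widest intervals.

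In each of the 4 comparisons, 0 members had groups that did not overlap, against 0.257% of all probe sets in *WT stress vs. con*, 0.289% in *KO stress vs. con*, 0.855% in *con KO vs. WT* and 1.02% in *stress KO vs. WT*. The 2 stress comparisons and the 2 genotype comparisons share arrays with each other, so their values stand side by side and not as separate evidence.

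The interaction of genotype and stress, which asks whether the response to stress differed between the genotypes, was higher than 0 for 17 members and lower for 15, with a median of 0.01 (all probe sets -0.03). None had an unadjusted p under 0.05 (limma), against 2.52% of all probe sets. Pdgfra had the smallest p, with 0.25 ± 0.16 (SE, limma adjusted p = 1.00), and was lower after stress in WT and nearly level in KO. Without *WT stress* replicate 1 its interaction was 0.13. Enpp6 came next, with -0.30 ± 0.31 (SE, limma adjusted p = 1.00), and stood at -0.15 without *WT con* replicate 1. Ermn had the largest value, -0.38 ± 0.39 (SE). The median of the members was -0.10 without *WT stress* replicate 1. The intervals of 19 members lay within 1.5-fold. The interval of Ermn reached from -1.21 to 0.45, so a negative interaction of over 1.5-fold lay within it.

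Averaged over both conditions, 27 of the 32 members were higher in KO and 5 lower, with a median of 0.07, beside 44.8% higher and a median of -0.01 over all probe sets. 1 of the 32 had an unadjusted p under 0.05 (limma), against 12% of all probe sets (4.71% higher in KO). It was Olig2, with 0.23 ± 0.10 (SE, 1.17-fold, limma p = 0.0303, adjusted p = 0.412), and a permutation of the genotypes within each condition gave an exact two-sided p of 0.0276 over 63504 arrangements. Olig2 encodes the factor that specifies the lineage. Its difference was 0.16 without *WT stress* replicate 1, with a limma p over 0.05. Pdgfra stood at 0.17 ± 0.08 (SE, limma adjusted p = 0.412) and Ermn at 0.37 ± 0.20 (SE, limma adjusted p = 0.419), the only interval of the 32 to pass 1.5-fold. The median over the members was 0.03 without *WT stress* replicate 1, 0.04 without *WT con* replicate 1, and close to 0 without both.

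Precursor and mature genes were then set against each other. In *stress KO vs. WT* the median of the 22 mature genes minus that of the 5 precursor and committed genes was -0.07, and in *KO stress vs. con* it was -0.11. The corresponding values were -0.04 in *WT stress vs. con* and 0.00 in *con KO vs. WT*, and none was given a test, since the genes were chosen with results known. In *WT stress vs. con* the medians were -0.12 for precursor, 0.16 for committed and -0.04 for mature genes. In *con KO vs. WT* they were 0.01, 0.19 and 0.08. In these 2 comparisons the precursor and committed medians thus lay on opposite sides of the mature median, which the pooled value hides. Single arrays moved the pooled values widely. In *stress KO vs. WT* the value ran from -0.18 (*WT stress* replicate 1 left out) to -0.01 (*WT stress* replicate 4 left out), and in *KO stress vs. con* it was -0.02 without *KO stress* replicate 3. In *WT stress vs. con* it was 0.02 without *WT stress* replicate 1, and in *con KO vs. WT* it ran from -0.08 without *WT con* replicate 3 to 0.07 without *KO con* replicate 5. For genotype averaged over conditions it was -0.10, and ran from -0.13 to -0.06 with 1 array left out at a time. For stress averaged over genotypes it was -0.08, and ran from -0.13 to -0.03. These values were not tested either. The mean of the 2 precursor genes was -0.20 to -0.05 in *WT stress* and -0.03 to 0.24 in *KO stress*, while the arrays of each gene alone overlapped. These ranges are a description of 2 genes. In *WT stress* replicate 1 the low Pdgfra and the high Cspg4 cancelled in this mean, which was -0.09. The score of mature genes ranged from -0.55 to 0.24 in *WT stress* and from -0.37 to 0.33 in *KO stress*.

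**Figure D4:**
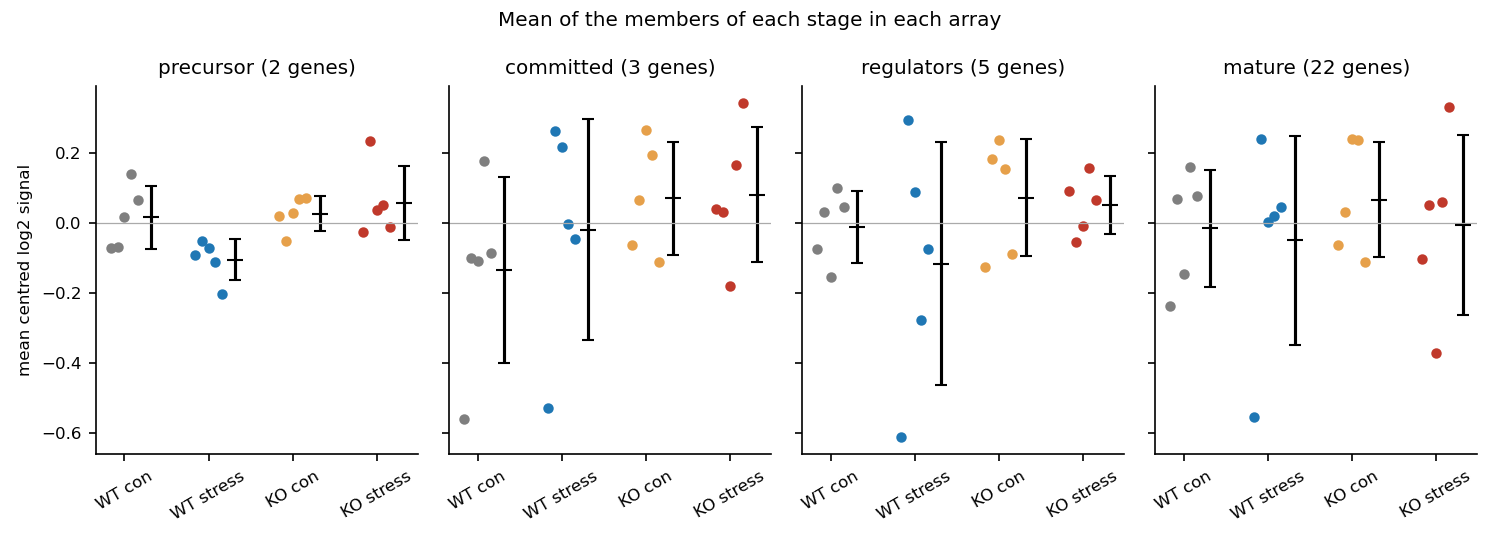
Mean log2 signal of the members of each stage (y axis), each gene centred on its mean over the 20 arrays, in the 4 groups (x axis). Points are arrays and bars the group mean ± SD (n = 5). Precursor means lie between -0.20 and 0.24, and those of the other 3 stages spread further, from -0.61 to 0.34.

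Other genes of the lineage, from lists that hold none of the members, were counted in the same fit. Of 69 listed genes 61 were measured. 1 of them had an unadjusted p under 0.05 in *WT stress vs. con*, 0 in *KO stress vs. con*, 0 in *con KO vs. WT* and 2 in *stress KO vs. WT* (limma, each without passing adjustment), where the shares of all probe sets were 3.54%, 1.13%, 3.57% and 9.28%. Efnb3, a membrane ephrin ligand that meets axons, was the one in *WT stress vs. con*, with -0.33 ± 0.14 (SE, limma adjusted p = 1.00), and its interaction was 0.46 ± 0.20 (SE). In *stress KO vs. WT* the 2 genes were C1ql1, a secreted protein made by precursors, with 0.44 ± 0.19 (SE, limma adjusted p = 0.53), and Id4, an inhibitor of differentiation, with 0.33 ± 0.15 (SE, limma adjusted p = 0.53). For the interaction, 2 of the 61 had an unadjusted p under 0.05 (limma), against 2.52% of all probe sets. These were Efnb3 and Id4, and neither passed adjustment. Averaged over conditions, 6 of the 61 passed the unadjusted threshold, beside 12% of all probe sets (4.71% higher in KO). All 6 were higher in KO: C1ql1 (0.32), Sox8 (0.23), Id2 (0.38), Sqle (0.24), Sirt2 (0.14) and Cryab (0.29), each with a limma adjusted p of 0.412. Sox8 is a relative of Sox10, Id2 codes for an inhibitor of differentiation, Sqle for an enzyme of cholesterol synthesis, Sirt2 for a deacetylase of myelin sheaths, and Cryab for a small heat-shock protein of mature cells.

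While group differences were small, the members varied together from mouse to mouse. After subtracting group means, the median Pearson correlation over the 231 pairs of mature genes was 0.62 across the 20 arrays, and 0.56 without *WT stress* replicate 1. These correlations are descriptions, since the arrays share 1 normalization and each array is 1 piece of mixed tissue. Against the mean of the other mature genes, Anln, an actin-binding protein that is also needed for cell division, had the highest value (0.97), followed by Enpp6 (0.90), Mog (0.90) and Ermn (0.89). Anln is itself in the mature list, while Enpp6 is listed with the committed stage. 12 of the 22 mature genes reached 0.8, against 0.501% of all probe sets, and 8 did so without *WT stress* replicate 1, against 0.136%.

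The members at the other end were Cspg4 (-0.51), Nkx6-2 (0.03), Gpr17 (0.24) and Tmem125 (0.30). Without *WT stress* replicate 1 the value of Cspg4 was -0.11 and that of Pdgfra moved from 0.64 to 0.38, and the correlation between Pdgfra and Cspg4 moved from -0.63 to -0.28, so the negative values of Cspg4 rested largely on 1 array. The median over the 44 pairs of a precursor with a mature gene was 0.07 (0.19 without *WT stress* replicate 1), that over the 66 pairs of a committed with a mature gene 0.60, and that over the 110 pairs of a regulator with a mature gene 0.54.

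**Figure D5:**
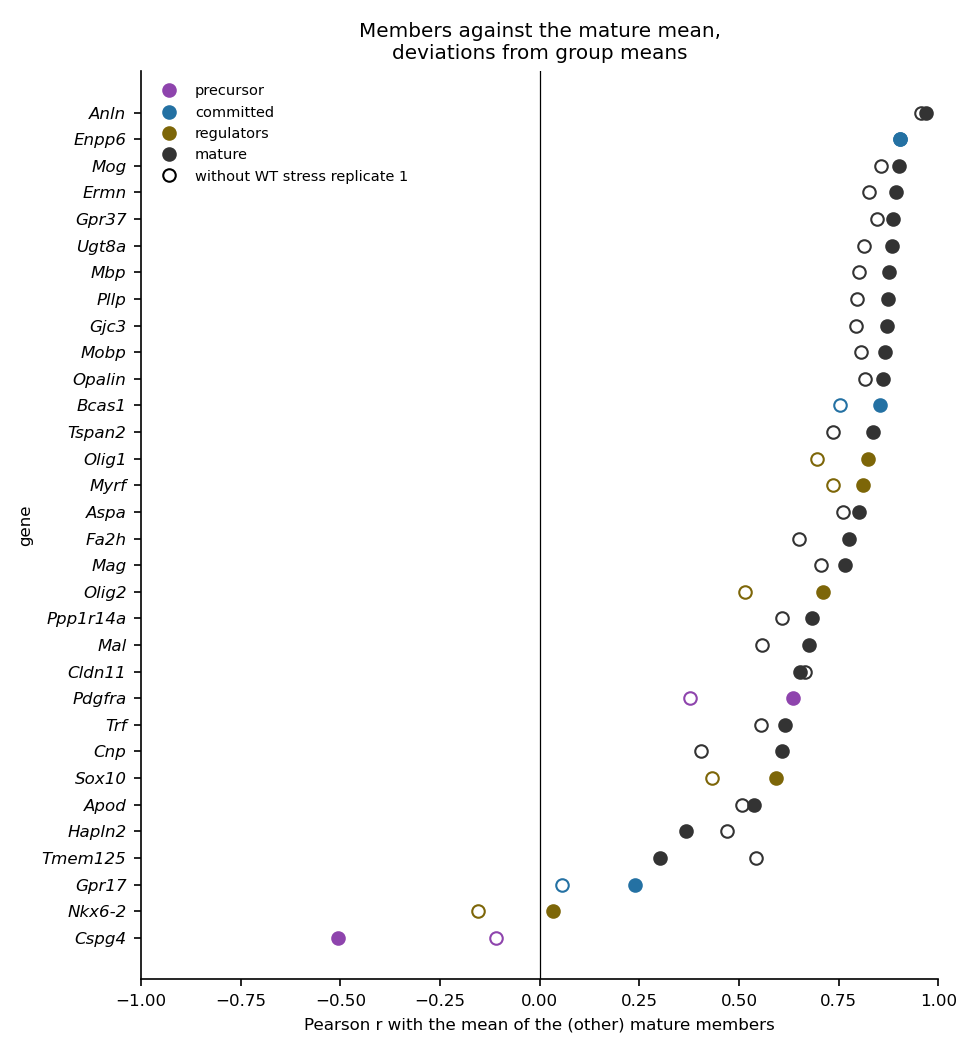
Pearson correlation (x axis) of each member (y axis) with the mean of the other mature members, from deviations from group means. Filled points use 20 arrays and open points leave out *WT stress* replicate 1. Anln is highest at 0.97 and Cspg4 lowest at -0.51, which moves to -0.11 in the open point.

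The genes outside all lists that ran most closely with the mature mean over the 20 arrays were Cyp2j12 (0.94), Pls1 (0.94), Unc5b (0.91), Abca8a (0.91), Efhd1 (0.91), Dedd (0.90), Pkp4 (0.90), Tnfaip6 (0.90), Map4 (0.89) and Adamts4 (0.89). Without *WT stress* replicate 1 their values lay between 0.82 and 0.93.

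The letters around a start are shown for 3 mature genes and the 2 precursor genes. Anln and Mog had the highest correlations with the mean of the other mature genes. Opalin was picked because its window holds both a SOX and a MYRF motif, so its matches are no result. Cspg4 had the lowest correlation. The part of these letters in the shared variation from mouse to mouse was not tested. RefSeq windows (GRCm38.p6) from 250 bases before to 50 after a start were given for 24 of the 32 members, with 27 windows in all. A set of 6 short motifs were searched on both strands: ACAAAG and ACAATG, bound by SOX factors, CTGGCAC and CTGGTAC, bound by MYRF, the GC box GGGCGG, and the E-box CAGCTG. Matches are in capitals, and a match on the other strand appears as the reverse complement.
Opalin, chr19:41077064-41077363, minus strand: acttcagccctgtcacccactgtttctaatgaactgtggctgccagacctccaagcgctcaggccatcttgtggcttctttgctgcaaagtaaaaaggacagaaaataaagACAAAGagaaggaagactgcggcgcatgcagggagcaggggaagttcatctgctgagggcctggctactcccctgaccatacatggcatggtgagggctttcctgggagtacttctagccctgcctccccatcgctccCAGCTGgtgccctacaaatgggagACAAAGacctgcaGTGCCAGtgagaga
Mog, chr17:37023349-37023648, minus strand: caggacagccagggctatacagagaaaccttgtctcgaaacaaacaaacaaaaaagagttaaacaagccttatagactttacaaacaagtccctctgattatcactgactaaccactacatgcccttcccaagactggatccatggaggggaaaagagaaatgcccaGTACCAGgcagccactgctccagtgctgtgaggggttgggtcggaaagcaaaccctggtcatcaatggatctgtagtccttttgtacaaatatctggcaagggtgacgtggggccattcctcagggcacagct
Anln, chr9:22389157-22389456, minus strand: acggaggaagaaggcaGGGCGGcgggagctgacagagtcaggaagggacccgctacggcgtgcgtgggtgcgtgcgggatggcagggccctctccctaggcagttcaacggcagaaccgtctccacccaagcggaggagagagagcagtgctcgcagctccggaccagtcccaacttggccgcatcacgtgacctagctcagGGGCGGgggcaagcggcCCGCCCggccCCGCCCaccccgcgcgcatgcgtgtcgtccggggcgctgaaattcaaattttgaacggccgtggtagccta
Cspg4, chr9:56864854-56865153, plus strand: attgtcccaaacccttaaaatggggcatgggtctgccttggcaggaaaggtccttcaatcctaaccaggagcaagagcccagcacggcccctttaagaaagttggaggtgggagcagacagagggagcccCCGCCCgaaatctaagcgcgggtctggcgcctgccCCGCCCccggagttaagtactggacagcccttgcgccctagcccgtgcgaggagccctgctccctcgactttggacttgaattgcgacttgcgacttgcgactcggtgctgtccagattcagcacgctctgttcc
Pdgfra, chr5:75152001-75152300, plus strand: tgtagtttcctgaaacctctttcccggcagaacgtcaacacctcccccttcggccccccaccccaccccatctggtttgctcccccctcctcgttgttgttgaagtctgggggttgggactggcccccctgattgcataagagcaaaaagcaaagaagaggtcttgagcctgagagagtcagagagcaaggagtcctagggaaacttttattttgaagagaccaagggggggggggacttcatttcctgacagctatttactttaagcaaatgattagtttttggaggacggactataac

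Opalin, which codes for a membrane protein of the oligodendrocyte and was picked for such matches, held ACAAAG at 2 places, CTGGCAC once on the other strand and the E-box once. Mog held CTGGTAC once, Anln and Cspg4 held the GC box alone (4 and 2 times), and Pdgfra held none of the 6. The Pdgfra window lies wholly within the gene span given above, so it belongs to a start inside the gene. Over the windows of the members, CTGGCAC was present in 22.2%, in the genes Cnp, Hapln2, Mag, Opalin and Tmem125, against 5.01% of all 32851 windows. ACAAAG was present in 25.9% against 18.7%, ACAATG in 18.5% against 12.6%, CTGGTAC in 3.7% against 2.24%, the GC box in 40.7% against 35.7% and the E-box in 14.8% against 16.3%. Windows of Mag that hold CTGGCAC overlap, so shares by window and by gene differ. Counted by gene, CTGGCAC was present in 5 of the 24 members with a window, against 5.73% of all genes, and ACAAAG in 6 of 24, against 21.0%. A match is a description of the letters and not of binding.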

How the data were processed

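RNA of both amygdalae of 20 mice was hybridised to GeneChip Mouse Gene 1.0 ST arrays, 1 mouse per array, in 4 groups of 5 taken from the sample labels. The authors used ExonRMA (ArrayAssist) to summarize and normalize the CEL files, applied a variance stabilization and deposited log2 signals in 1 table of 28767 probe sets. The log base was taken from the values. The deposited log2 signals were used without further scaling. Symbols came from the platform's probe table, in which 21776 probe sets have 1 symbol. Their gene identifiers were looked up in RefSeq (GRCm38.p6), and 0 symbols changed.

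limma 3.58.1 in R 4.3.3 fitted 4 group means over all probe sets (16 residual and 2.1 prior degrees of freedom), with eBayes and Benjamini-Hochberg adjustment over all 28767. The criterion of the study's methods, a fold over 1.5 at p under 0.05, used the p-values of limma. The script was tested on simulated data. Named members also had a two-sided exact permutation test on the 10 arrays of a comparison (252 arrangements, smallest possible p = 0.00794). Scores are means of genes centred over the 20 arrays. Pearson correlations used deviations from group means. The number of arrays limits the precision, with a median SE of 0.17 for the members' group differences on the log2 scale. Figures come from Python 3.11.15 with matplotlib 3.10.9.

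Members and gene lists were chosen with earlier results of these data known. By rule, 9 stage markers, the 2 members with the smallest p in each of the 4 group comparisons and the interaction, up to 3 other lineage genes per group comparison and the 10 genes most like the mature mean are named. Other members, and the other lineage genes named for the interaction or for genotype averaged over conditions, were named after their values were seen. Replicates of the same number correlated at 0.16 to 0.42 in all 5 pairs of *WT con* and *WT stress*, so a block on the number was fitted for WT, and each other pair of groups held at least 1 value under 0.1. Alternatives were other scalings, a level filter, other variance models, array weights, 2-group fits, the methods' t-test, blocks and leaving out arrays. Batches are not given in the sources used here.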

Additional observations from a re-analysis of the deposited data

Results flagged for a closer look

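Within a group of 5 arrays, 7 of 128 combinations of member and group held an array far from the other 4, as judged by Dixon's gap test, which by chance picks out about 1 in 20. Of these, 5 are low values of *WT stress* replicate 1: Pdgfra at 8.44 (nearest other array 8.98), Bcas1 at 7.53 (8.37), Olig1 at 8.05 (8.91), Ugt8a at 9.13 (10.17) and Gpr37 at 8.94 (9.86). Hapln2 in *KO stress* replicate 5, at 7.31, lay above the other 4 (highest 6.84). Tmem125 in *WT con* replicate 5, at 7.24, lay below the other 4 (lowest 7.38).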

How the results depend on the processing

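The counts of members at an unadjusted p under 0.05 rest on 0 or 1 gene and shift by single genes. In *WT stress vs. con* the count was 1 (Pdgfra) with quantile normalization. In *con KO vs. WT* it was 1 (Ermn) with arrays centred on their medians, with limma on the 2 groups alone and with the methods' t-test, and 2 (Ermn and Olig2) with array weights. In *stress KO vs. WT* it was 0 with limma on the 2 groups alone, with the methods' t-test and without both *WT con* replicate 1 and *WT stress* replicate 1. For the interaction it was 1 with quantile normalization (Pdgfra) and 1 with array weights (Ermn), where the count past the fold and p criterion was 1 too. For genotype averaged over conditions it was 0 with quantile normalization, with array weights and without both of those WT arrays. With array weights, the median of mature minus that of precursor and committed genes was -0.26 in *stress KO vs. WT* and -0.20 for the interaction. The cause of these shifts was not tested. With a replicate block in all 4 groups the count was 1 in *WT stress vs. con*, 1 in *con KO vs. WT* and 3 (Pdgfra, Olig2 and Ermn) for genotype averaged over conditions. The block within WT alone, where replicates of the same number correlated, changed no call. The labels do not say that replicates of the same number are paired. Leaving out 1 array at a time gave counts of 0 to 1 in *WT stress vs. con*, 0 to 1 in *KO stress vs. con*, 0 to 2 in *con KO vs. WT*, 0 to 2 in *stress KO vs. WT*, 0 to 1 for stress averaged over genotypes and 0 to 3 for genotype averaged over conditions. Past the fold and p criterion the count in *con KO vs. WT* was 0 to 1. Mature minus precursor and committed genes ranged from -0.159 to 0.0589 for the interaction, the latter without *WT stress* replicate 5. Pdgfra in *stress KO vs. WT* ranged from 0.18 to 0.35, Olig2 averaged over conditions from 0.16 to 0.27, and the latter lost its call without *WT con* replicates 1 or 3, *WT stress* replicate 1, or *KO con* replicates 2 or 3. Pdgfra in *stress KO vs. WT* and Olig2 averaged over conditions kept their direction under every alternative run. Each member has 1 probe set, so averaging probe sets changes nothing. No scaling moved the median of all probe sets by over 0.1.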
